A study of Mus musculus with 9 samples.

Results

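The paired inhibitory and activating myeloid receptors described here are 10 genes, Pirb, Lilrb4a, Lilr4b, Lilra5, Lilra6, Sirpa, Cd300a, Cd300lf, Cd300lb and Cd300ld, of the 18349 genes listed in each of 9 iris RNA-Seq libraries. They were found by gene symbol, and all 10 passed the filter on low counts that kept 15010 genes for testing. The genes were chosen by their family and with their levels in these same libraries in view, in both comparisons. Their values, fold changes and calls are therefore given as a description, without p-values, and support nothing by themselves.

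The libraries fell into 3 groups of 3, each library made from 3 irises of C57BL/6J mice combined before RNA extraction. At 6 weeks of age, Sham VEGFR3 fl/fl mice had PBS held against the cornea during 60 seconds. Injured VEGFR3 fl/fl mice received 0.5 μl of 1 M NaOH for the same time, a corneal alkali injury. Injured VEGFR3 iLECko mice received the same injury and carried the floxed VEGFR3 alleles together with Prox1-CreERT2, a tamoxifen-inducible Cre recombinase driven by the Prox1 promoter, which is active in lymphatic endothelium and in some other cells. The genotype tag of the Sham and injured VEGFR3 fl/fl libraries reads WT, and the animals were floxed littermates without Cre. Tamoxifen at 80 mg/kg was given on days 13 to 17 after injury, and the irises were taken at 10 weeks of age. The injured comparison asks what loss of VEGFR3 in cells with the Cre, induced from day 13 after injury, does to an injured iris. The comparison with Sham asks what the injury itself does.

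Totals ran from 16617187 to 18306359 estimated counts per library. Flt4, which encodes VEGFR3, had 282, 237 and 265 counts in Sham. The injured VEGFR3 fl/fl libraries held 277, 353 and 400 of them, and those labelled VEGFR3 iLECko held 478, 370 and 476. It was not lower in the libraries labelled VEGFR3 iLECko than in injured VEGFR3 fl/fl (log2 fold change 0.33, SE 0.15, adjusted p = 0.200, edgeR quasi-likelihood test with Benjamini-Hochberg adjustment). Counts over a whole gene do not separate the deleted exons from the rest, nor cells with the Cre from other cells, so the counts of Flt4 do not check the label, and each direction below rests on it. Prox1, the driver of the Cre and a marker of lymphatic endothelium, was counted 74, 51 and 10 times in injured VEGFR3 fl/fl against 16, 20 and 21 times in the libraries labelled VEGFR3 iLECko, which overlapped (log2 fold change -1.29, SE 0.66, adjusted p = 0.256 by the same edgeR test). The 6 iris markers, pigment and smooth muscle genes, summed to 22172 to 25155 CPM (counts scaled to the size of each library) in Sham and 2594 to 5505 CPM in the 6 injured libraries, and 4 markers of ciliary body, cornea and lens summed to 3.21 to 4.35 CPM in Sham, 6.74 to 37.6 CPM in injured VEGFR3 fl/fl and 12.6 to 20.9 CPM in the libraries labelled VEGFR3 iLECko. Among these 4, the lens gene Cryaa was counted 1, 2 and 0 times in Sham, 48, 607 and 541 times in injured VEGFR3 fl/fl and 274, 337 and 175 times in the libraries labelled VEGFR3 iLECko, while the corneal keratin Krt12 fell by 2.11 on the log2 scale after injury (SE 0.46, adjusted p = 0.0036, same edgeR test). The part of such tissue in the levels below was not tested.

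Paired receptors are cell surface proteins, found on macrophages, monocytes, neutrophils, mast cells and dendritic cells among other cells. Many come as near-identical partners with opposite signals. The inhibitory partner carries immunoreceptor tyrosine-based inhibitory motifs (ITIMs) in its cytoplasmic tail, which recruit the phosphatases SHP-1 and SHP-2 when phosphorylated. The activating partner has a short tail and relies on an adapter such as DAP12 or the Fc receptor gamma chain, whose activation motifs (ITAMs) call in the kinase Syk. Of the inhibitory members, Pirb binds MHC class I, Lilrb4a (also gp49B) binds an integrin, Sirpa binds CD47 and restrains phagocytosis, and Cd300a and Cd300lf bind phospholipids on dying cells. Of the others, Lilra5, Lilra6, Cd300lb and Cd300ld are activating receptors, and Lilr4b (gp49A) is the partner of Lilrb4a without inhibitory motifs, which was grouped with them.

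The members lie in 4 places of the mouse genome (GRCm38.p6, RefSeq). Pirb (chr7:3712505-3720382), Lilra6 (chr7:3908277-3915571) and Lilra5 (chr7:4237643-4243690) share a stretch of chromosome 7. Lilr4b (chr10:51480612-51486329) and Lilrb4a (chr10:51490898-51496613) are neighbours on chromosome 10. Cd300a (chr11:114889152-114901946), Cd300lb (chr11:114922779-114934371), Cd300ld (chr11:114982443-114989886) and Cd300lf (chr11:115116214-115135372) form a cluster on chromosome 11, and Sirpa stands alone (chr2:129591042-129632228).

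Shared sequence bears on what the counts of these genes measure, because the reads were 50 bases long and single-end. The longest stretch of coding sequence that 2 members have in common is shown for the gp49 pair and for Pirb with Lilra6 (GENCODE M21 transcripts, spliced, 5′ to 3′, in lower case throughout). A read lying wholly within either stretch fits both genes alike.
Lilrb4a and Lilr4b, 126 bases: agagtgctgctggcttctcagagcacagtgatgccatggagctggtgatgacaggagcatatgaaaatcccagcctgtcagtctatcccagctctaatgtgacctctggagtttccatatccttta
Pirb and Lilra6, 241 bases: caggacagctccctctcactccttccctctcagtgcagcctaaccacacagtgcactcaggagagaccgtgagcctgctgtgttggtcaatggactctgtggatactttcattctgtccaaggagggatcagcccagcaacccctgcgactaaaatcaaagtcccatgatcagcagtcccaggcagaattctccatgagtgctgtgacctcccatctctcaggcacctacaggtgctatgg
Of all 50-base windows in the transcripts of Lilrb4a, 47.2% also occurred in another gene, 33.7% in Gm49339, a gene not used here, and 26.1% in Lilr4b. For Lilr4b the share was 24.6%, with 12.5% in Gm49339, for Pirb 34.0%, and for Lilra6 31.3%, with 21.7% of the windows of Lilra6 found in Pirb. Cd300a, Cd300lf and Cd300ld shared 2.44% to 3.89% of their windows, and Lilra5, Sirpa and Cd300lb shared 0%. Whether the estimated counts were whole numbers followed these shares in part. Lilra5, Sirpa, Cd300lf, Cd300lb and Cd300ld had whole counts in all 9 libraries, whereas the count of Pirb was not whole in 9 libraries, that of Lilrb4a in 7, that of Lilr4b in 7, that of Lilra6 in 6 and that of Cd300a in 1. How the program divided reads between Lilrb4a and Lilr4b, and between Pirb, Lilra6 and the other Pira genes, is part of each of their values.

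RefSeq promoters (250 bases before to 50 after a start site) were given for 8 members, and none for Lilrb4a and Sirpa. The bases before the start are shown for Pirb and Lilra6, the pair with the most identical bases. They are also shown for Cd300a and Cd300lf. These are the inhibitory members with the lowest and the highest log2 fold change in the libraries labelled VEGFR3 iLECko against injured VEGFR3 fl/fl. The stretches of Cd300a and Cd300lf lie inside the gene positions given above, and that of Lilra6 partly, so they precede starts within those positions. Capitals mark GAGGAA on either strand (TTCCTC as read here), a core bound by the myeloid transcription factor PU.1, searched for after the sequences had been seen.
Pirb, chr7:3720383-3720632, minus strand: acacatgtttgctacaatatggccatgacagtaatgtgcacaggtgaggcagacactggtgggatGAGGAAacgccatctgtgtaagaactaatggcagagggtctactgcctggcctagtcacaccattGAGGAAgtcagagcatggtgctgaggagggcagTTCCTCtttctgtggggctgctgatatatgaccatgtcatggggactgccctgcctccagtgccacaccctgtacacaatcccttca
Lilra6, chr7:3915502-3915751, minus strand: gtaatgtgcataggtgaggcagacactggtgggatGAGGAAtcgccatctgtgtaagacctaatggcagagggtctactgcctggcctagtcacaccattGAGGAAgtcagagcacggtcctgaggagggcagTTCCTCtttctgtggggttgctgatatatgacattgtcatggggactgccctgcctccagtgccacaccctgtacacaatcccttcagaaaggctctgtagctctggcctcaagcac
Cd300a, chr11:114889791-114890040, plus strand: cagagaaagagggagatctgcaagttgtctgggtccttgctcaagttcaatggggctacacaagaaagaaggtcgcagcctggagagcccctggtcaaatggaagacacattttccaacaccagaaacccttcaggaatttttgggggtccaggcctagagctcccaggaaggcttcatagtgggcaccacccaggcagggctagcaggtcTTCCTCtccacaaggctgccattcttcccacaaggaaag
Cd300lf, chr11:115133993-115134242, minus strand: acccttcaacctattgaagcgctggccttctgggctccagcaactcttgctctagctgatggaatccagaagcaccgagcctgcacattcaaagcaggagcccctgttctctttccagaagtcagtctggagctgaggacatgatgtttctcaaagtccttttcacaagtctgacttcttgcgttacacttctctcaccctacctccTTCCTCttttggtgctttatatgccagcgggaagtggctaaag
Over the whole window of 300 bases, Pirb and Lilra6 matched at 259 of 270 aligned bases (95.9%). The pair with the next most identical bases, Lilra5 and Lilra6, matched at 140 of 205 (68.3%), and some shorter alignments of other pairs had higher percentages. Pirb and Lilra6 each carried GAGGAA 3 times, at -185, -120 and -87 in Pirb and at -215, -150 and -117 in Lilra6, counted from the start site at 0. Cd300a held it at -39, Cd300lf at -43 and 0, Lilra5 at -128 and Cd300ld at -143. It was in 6 of the 8 member promoters and in 28.3% of all 32851 mouse promoters of that length. The 2 without it were those of Lilr4b and Cd300lb.

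After alkali injury the transcripts of all 10 receptors were at higher mean levels than in Sham, most of them by more than 10-fold. The comparison called 10 of 10 members upregulated as DEGs (more than 1.5-fold apart at an edgeR adjusted p under 0.05), where 22.1% of all genes tested were called upregulated. Since the members were selected on this readout, nothing is read from that count. In 9 of them every injured VEGFR3 fl/fl library lay above every Sham library, which held for 33.9% of all genes. The median log2 fold change of the members was 5.36 beside 0.01 over all genes, and it was the same with Lilra6, nearly absent from Sham, at its lower limit. In this bulk RNA, more cells carrying a receptor and more RNA of it per cell cannot be told apart.

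Among the inhibitory members, Sirpa was already abundant in the uninjured iris, in cells that were not identified. Its level was 199, 202 and 201 CPM in Sham and 590, 553 and 691 CPM in injured VEGFR3 fl/fl. That is 201 ± 1.67 against 612 ± 71.5 CPM (SD, n = 3), a log2 fold change of 1.61 (SE 0.11), with no overlap between the groups.
Pirb, which binds MHC class I on neighbouring cells, went from 4.15, 4.35 and 5.01 CPM to 194, 176 and 216 CPM, a log2 fold change of 5.44 (SE 0.13). Lilrb4a went from 12.7, 12.1 and 11.7 CPM to 531, 412 and 469 CPM, a log2 fold change of 5.27 (SE 0.13). Both genes had tight Sham groups, and their lowest injured library was far above the highest Sham one.
Cd300a, an inhibitory receptor for phosphatidylserine and phosphatidylethanolamine, had 3.10, 3.73 and 3.89 CPM in Sham and 85.5, 65.0 and 69.4 CPM in injured VEGFR3 fl/fl, a log2 fold change of 4.36 (SE 0.17). Cd300lf, which recognises ceramide and phosphatidylserine, was close to absent from Sham, with 4, 3 and 7 counts, against 1500, 1616 and 2883 counts after injury. Its log2 fold change of 8.77 (SE 0.38) was the largest of the members that had more than 1 count in Sham. The third injured library was high for Cd300lf, at 166 CPM against 91.0 and 94.6 CPM in the others.

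Of the members without inhibitory motifs, Lilr4b (gp49A) was at 2.49, 1.81 and 2.37 CPM in Sham and at 182, 153 and 139 CPM in injured VEGFR3 fl/fl, a log2 fold change of 6.15 (SE 0.15). With its reads summed with those of Lilrb4a, an alternative added after the data were seen that leaves out how reads were divided between these 2 genes, the gp49 pair had a log2 fold change of 5.45 (SE 0.13).
Cd300lb, an activating receptor that signals through DAP12, was at 0.609, 0.452 and 1.07 CPM in Sham and at 31.4, 34.0 and 31.5 CPM in injured VEGFR3 fl/fl, with the injured libraries close together (32.3 ± 1.45 CPM, SD, n = 3) and a log2 fold change of 5.49 (SE 0.24). Cd300ld, which signals through the Fc receptor gamma chain, was at 2.88, 2.26 and 2.76 CPM in Sham and was spread in injured VEGFR3 fl/fl, at 27.6, 44.0 and 56.6 CPM, a log2 fold change of 4.02 (SE 0.32).
Lilra6, an activating partner of Pirb, had 0, 1 and 0 counts in Sham and 60.3, 138 and 203 estimated counts in injured VEGFR3 fl/fl. The ratio to that single Sham count was 421 with a 95% counting interval of 75.1 to 16669 (exact conditional binomial, counting error only). The first injured library was the lowest for Lilra6, Cd300ld and Cd300lf alike. Summed with Pirb, Pira1 and Pira2, with which it shares sequence, the group had a log2 fold change of 5.79 (SE 0.14).
Lilra5, an activating receptor of monocytes and macrophages, was low in every group. It was counted 30, 34 and 19 times in Sham and 74, 31 and 61 times after injury, and the second injured library fell within the Sham range. Its log2 fold change was 1.07 (SE 0.36), and it was the member whose call depended on single libraries. Without Sham replicate 1 or 3, or without injured VEGFR3 fl/fl replicate 1 or 3, it was no longer a DEG, with log2 fold changes of 1.12, 0.87, 0.77 and 1.02 in that order.

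**Figure D1:**
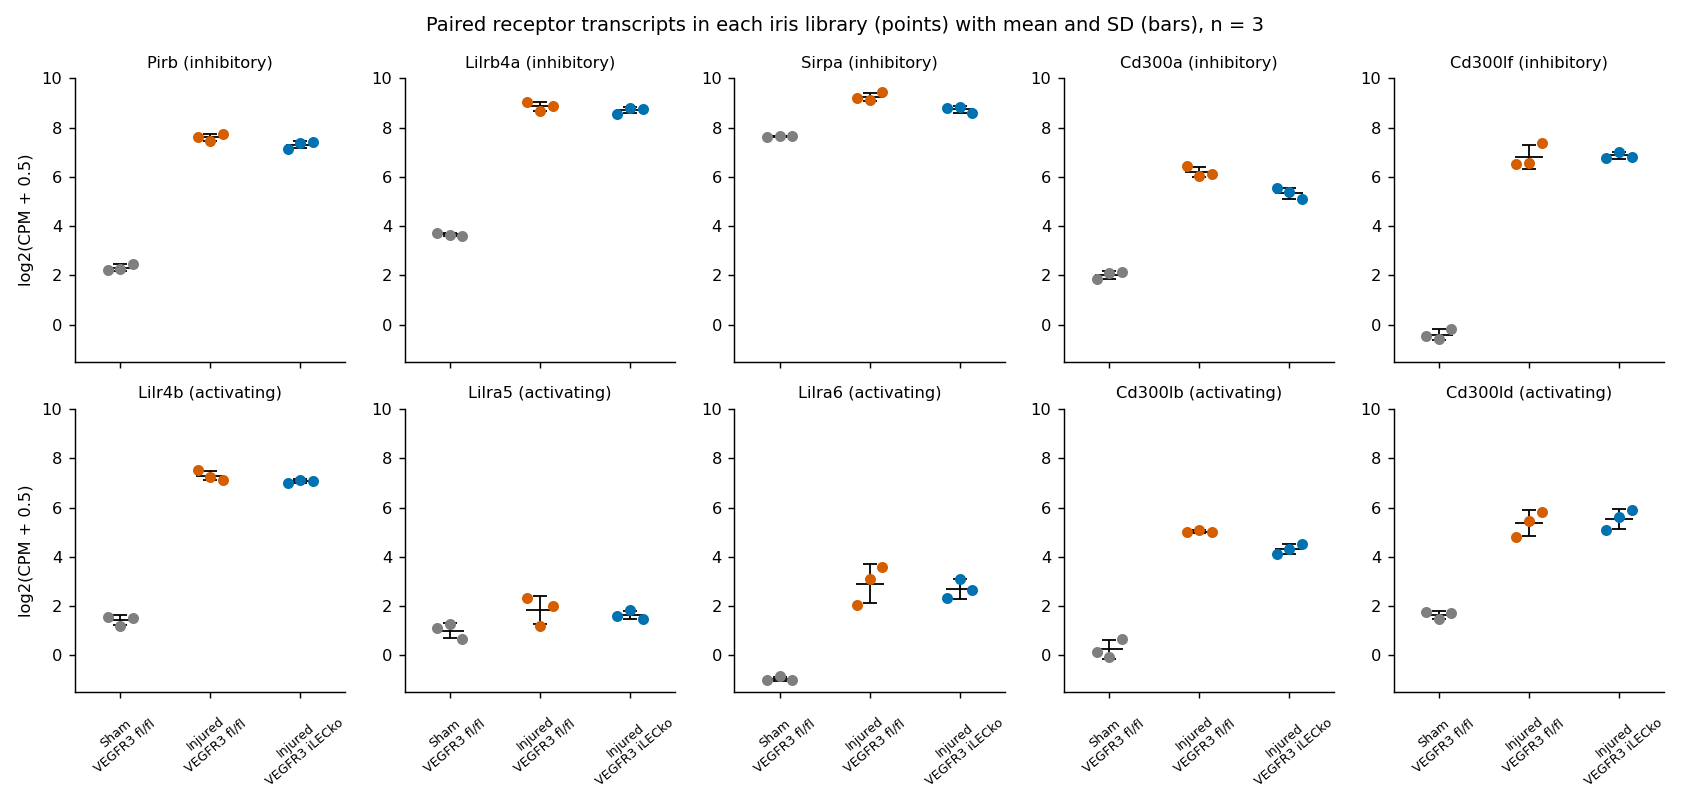
Level of each receptor in each library, as log2(CPM + 0.5) on the TMM scale, in Sham VEGFR3 fl/fl (grey), injured VEGFR3 fl/fl (orange) and injured VEGFR3 iLECko (blue) irises. Points are libraries, and the horizontal line and bars are the mean and SD of the log2 values (n = 3). In 9 genes all injured VEGFR3 fl/fl points lie above all Sham points, and Lilra5 is the exception.

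CPM values do not compare one gene with another, so levels were also divided by transcript length as approximate TPM, which sum to the same total in each library. In Sham, Sirpa was at 144 ± 4.57 TPM (SD, n = 3), and Lilrb4a, next in order, at 9.25 ± 0.641 TPM. Pirb, Cd300ld, Cd300a, Lilra5 and Lilr4b followed between 3.37 and 1.59 TPM, each overlapping its neighbour in that order, and Cd300lb, Cd300lf and Lilra6 were below 1 TPM. In injured VEGFR3 fl/fl the order was Sirpa at 359 ± 58.1, Lilrb4a at 290 ± 21.2, Pirb at 119 ± 16.5, Lilr4b at 91.6 ± 5.96, Cd300lf at 70.2 ± 28.8, Cd300ld at 38.3 ± 15.2, Cd300a at 36.5 ± 2.57, Cd300lb at 26.2 ± 2.78, Lilra6 at 6.69 ± 3.73 and Lilra5 at 3.56 ± 1.29 TPM. Neighbours overlapped between Lilr4b and Cd300lf, Cd300lf and Cd300ld, Cd300ld and Cd300a, and Lilra6 and Lilra5. In the libraries labelled VEGFR3 iLECko, Lilrb4a at 287 ± 32.4 and Sirpa at 280 ± 30.3 TPM overlapped and stood above the rest.
The make-up of the set thereby shifted with injury. Sirpa made up 86.4% to 87.0% of the summed TPM of the 10 receptors in Sham and 32.8% to 35.8% in injured VEGFR3 fl/fl, while Lilrb4a went from 5.31% to 5.81% up to 25.7% to 31.2%. The 5 members without inhibitory motifs together made up 4.09% to 4.68% of the sum in Sham, 15.1% to 17.5% in injured VEGFR3 fl/fl and 15.6% to 18.8% in the libraries labelled VEGFR3 iLECko. Inhibitory transcripts thus stayed the larger part in each of the 9 libraries. The higher share of the 5 after injury turned on Sirpa. Over the other 9 members, a sum added after the data were seen, those without inhibitory motifs made up 31.4% to 34.4% in Sham, 23.2% to 26.7% in injured VEGFR3 fl/fl and 23.3% to 25.6% in the libraries labelled VEGFR3 iLECko, so their share was lower after injury in place of higher. Within the gp49 pair, Lilr4b was 12.1% to 16.04% of the pair in Sham and 21.8% to 25.9% in the 6 injured libraries, a share that depends on how reads common to both were divided.

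**Figure D2:**
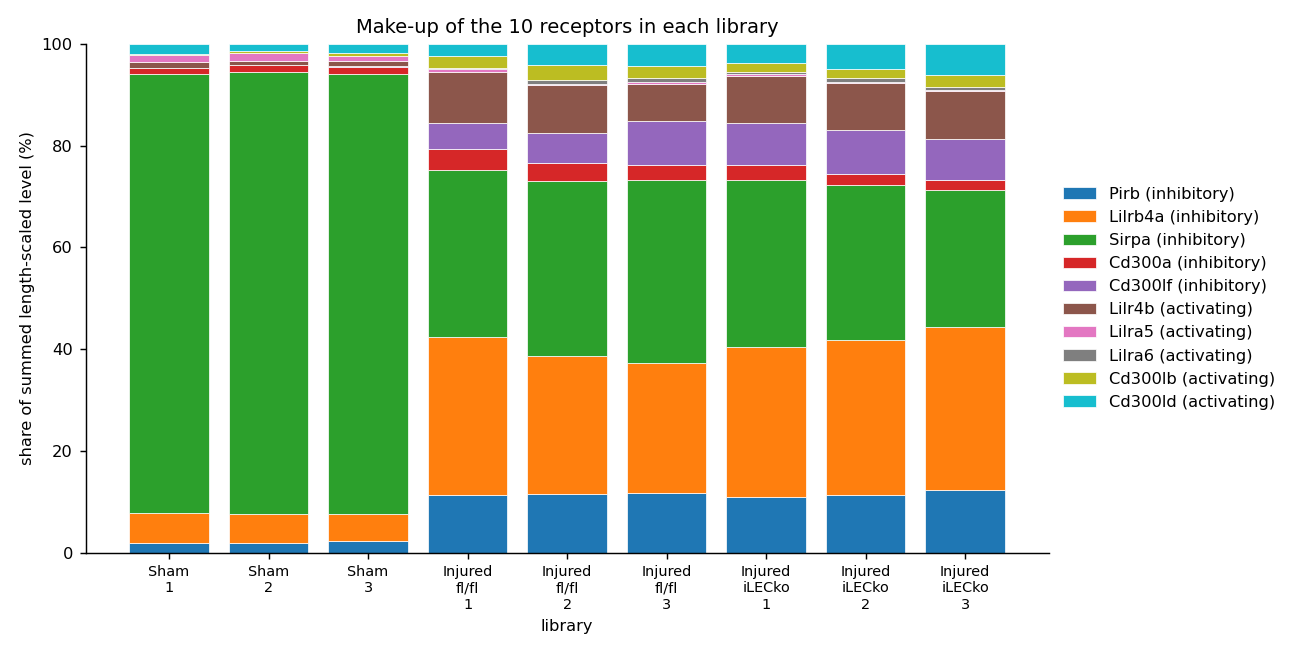
Share of each receptor in the summed length-scaled level (approximate TPM, in %) of the 10 receptors, 1 stacked bar per library. Inhibitory members are stacked first. Sirpa fills 86.4% to 87.0% of the Sham bars and 26.9% to 35.8% of the injured ones.

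In the libraries labelled VEGFR3 iLECko, 8 of the 10 receptors had lower mean levels than in injured VEGFR3 fl/fl, and every mean stayed above that of Sham. Against injured VEGFR3 fl/fl, 1 member, Cd300a, was called downregulated and no other was called either way. The test called 0.466% of all genes downregulated and 0.573% upregulated. The fitted change was negative in 8 members and positive in 2, with a median of -0.30 on the log2 scale beside -0.0099 over all genes. All 3 libraries labelled VEGFR3 iLECko lay below all 3 injured VEGFR3 fl/fl libraries for 4 of 10 members (Pirb, Sirpa, Cd300a and Cd300lb), which held for 14.3% of all genes, and the other 6 overlapped. Because this readout too was in view when the genes were chosen, these counts are a description.

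Cd300a showed the largest change. It was at 46.2, 41.3 and 33.8 CPM in the libraries labelled VEGFR3 iLECko against 85.5, 65.0 and 69.4 CPM in injured VEGFR3 fl/fl, or 40.4 ± 6.23 against 73.3 ± 10.8 CPM (SD, n = 3), and its log2 fold change was -0.86 (SE 0.14). Its direction held in every alternative fit, with log2 fold changes from -0.96 to -0.73, but its call did not. The number of members called downregulated was 0 without any 1 of the 3 Sham libraries, without any 1 of the 3 libraries labelled VEGFR3 iLECko, and with the 6 libraries compared fitted alone.
Cd300lb, an activating receptor from the same cluster of genes, was at 16.9, 19.7 and 22.6 CPM against 31.4, 34.0 and 31.5 CPM, a log2 fold change of -0.71 (SE 0.17). Sirpa was at 446, 463 and 385 CPM against 590, 553 and 691 CPM, a log2 fold change of -0.50 (SE 0.10). Pirb was at 142, 167 and 169 CPM against 194, 176 and 216 CPM, a log2 fold change of -0.30 (SE 0.10). In these 3 genes the groups did not overlap, and they were not DEGs.
The other Cd300 members differed from that pattern. Cd300lf was at 109, 130 and 113 CPM in the libraries labelled VEGFR3 iLECko against 91.0, 94.6 and 166 CPM in injured VEGFR3 fl/fl, means of 117 CPM in both groups, with a log2 fold change of 0.0026 (SE 0.21). Cd300ld was at 34.1, 49.2 and 58.9 CPM against 27.6, 44.0 and 56.6 CPM, a log2 fold change of 0.15 (SE 0.26). Without injured VEGFR3 fl/fl replicate 1, the library low for both, the sign turned negative in each. The sign of Cd300lf also turned without injured VEGFR3 fl/fl replicate 2 or VEGFR3 iLECko replicate 2, and that of Cd300ld without VEGFR3 iLECko replicate 3.
Lilrb4a was at 377, 441 and 435 CPM against 531, 412 and 469 CPM, a log2 fold change of -0.17 (SE 0.11), and Lilr4b at 126, 140 and 137 CPM against 182, 153 and 139 CPM, a log2 fold change of -0.24 (SE 0.11). The gp49 pair summed gave -0.19 (SE 0.10). Lilra6 had 76.7, 143 and 102 counts against 60.3, 138 and 203, a log2 fold change of -0.34 (SE 0.42) that turned positive without injured VEGFR3 fl/fl replicate 3. Lilra5 had 44, 54 and 40 counts against 74, 31 and 61, a log2 fold change of -0.30 (SE 0.35).

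Compared with Sham, the libraries labelled VEGFR3 iLECko had 9 members called upregulated, all but Lilra5, where 19.7% of all genes were. For all 10 members every library labelled VEGFR3 iLECko lay above every Sham library, which held for 33.3% of all genes. The comparisons with Sham share the Sham libraries, so the fold changes are given side by side. For Cd300lf the log2 fold change over Sham was 8.77 in both injured groups. For Cd300a it was 4.36 in injured VEGFR3 fl/fl and 3.50 in the libraries labelled VEGFR3 iLECko, for Cd300lb 5.49 and 4.78, for Sirpa 1.61 and 1.11, and for Pirb 5.44 and 5.14.

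**Figure D3:**
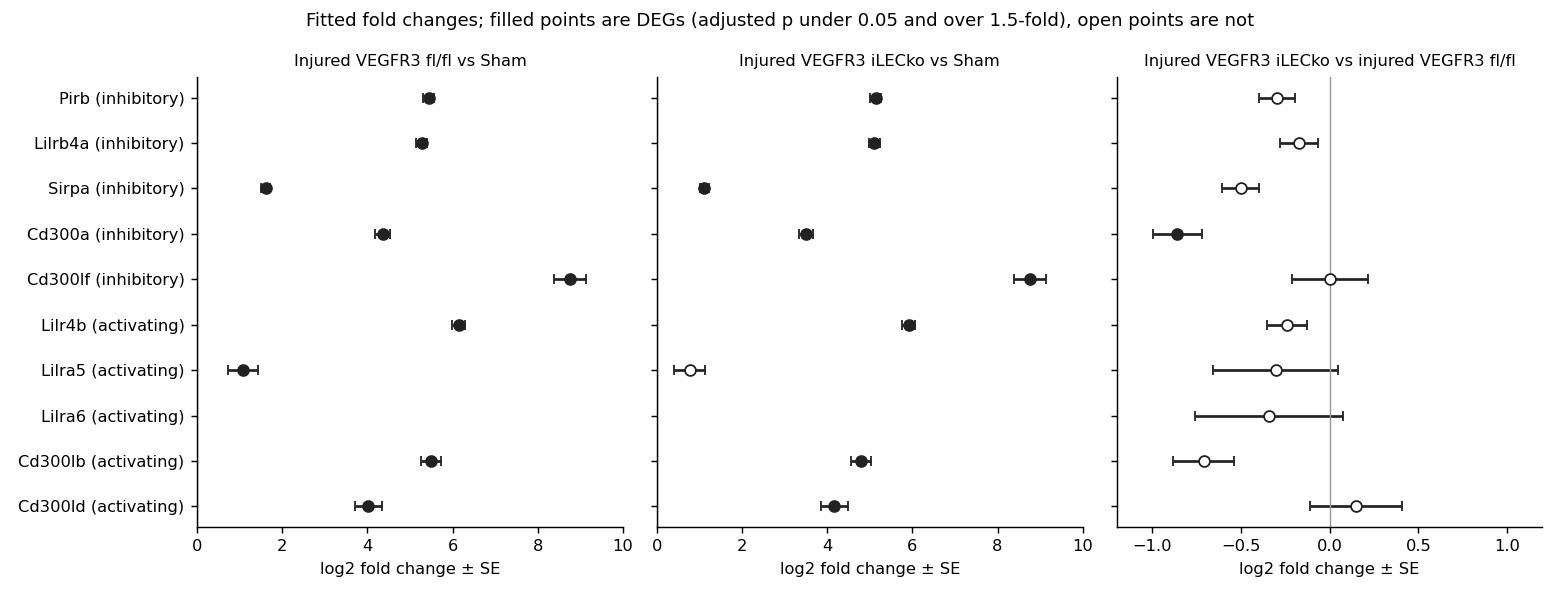
Fitted log2 fold change of each receptor with its standard error in the 3 comparisons (edgeR, all 9 libraries), inhibitory members first. Filled points are DEGs and open points are not. Lilra6 is left out of both comparisons with Sham, where it had 1 count in all. Against injured VEGFR3 fl/fl, 8 points lie below 0 and only that of Cd300a is filled.

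Markers of immune cells that can carry these receptors also changed. All 10 macrophage and monocyte markers rose after injury by the edgeR test, and 5 of the 10 (Adgre1, Aif1, Cx3cr1, C1qa and Fcgr1) fell in the libraries labelled VEGFR3 iLECko. Their log2 fold changes ran from -1.10 (Aif1) to -0.60 (Adgre1), and 0.466% of all genes were called lower. Those 5 calls became 2 without Sham replicate 1 or 3 or VEGFR3 iLECko replicate 1 or 3, and 2 with a replicate block. They became 0 without VEGFR3 iLECko replicate 2 and 0 with the 6 libraries compared fitted alone. DESeq2 called 7 of the 10 lower, and it called 283 of all genes lower beside 70 in the main fit. The fold changes of the 5 genes stayed negative in all these fits, between -1.16 and -0.54. The summed level of the list was 415 to 424 CPM in Sham, 11311 to 19741 CPM in injured VEGFR3 fl/fl and 7571 to 9375 CPM in the libraries labelled VEGFR3 iLECko. Lyz2, which encodes lysozyme, made up 80.6% to 89.2% of the sum in the 6 injured libraries. Without it the sum was 276 to 281 CPM in Sham, 2112 to 2193 CPM in injured VEGFR3 fl/fl and 1417 to 1495 CPM in the libraries labelled VEGFR3 iLECko.
Neutrophil markers were spread within both injured groups, which overlapped. They summed to 0.61 to 1.35 CPM in Sham, 90.4, 223 and 225 CPM in injured VEGFR3 fl/fl and 196, 300 and 939 CPM in the libraries labelled VEGFR3 iLECko, with 4 of 4 tested genes rising after injury and 0 of 4 passing the edgeR test between the injured groups (2 at an unadjusted p under 0.05, both higher, and 0 by DESeq2). Injured VEGFR3 fl/fl replicate 1, lowest for Cd300lf, Cd300ld and Lilra6, was the lowest injured library for neutrophil markers and for iris markers (2594 CPM). It was the highest for the macrophage sum with Lyz2, but not without it (2123 CPM, against 2193 CPM in replicate 2). VEGFR3 iLECko replicate 3, highest for neutrophil markers, was the highest for Cd300ld (58.9 CPM). It was in the middle of its group for Cd300lf (113 CPM) and Lilra6 (5.87 CPM). Mast cell markers, of which 0 of 5 tested passed the edgeR test in either comparison (0 after injury and 3 between the injured groups at an unadjusted p under 0.05, and 0 by DESeq2), summed to 114 to 179 CPM in injured VEGFR3 fl/fl and 67.3 to 113 CPM in the libraries labelled VEGFR3 iLECko. Kit had the largest mean, at 52.3 ± 19.6 and 65.9 ± 6.08 CPM in that order (SD, n = 3), with a fitted log2 change of 0.33 between these groups. The other 4 tested genes had negative changes, with a median of -2.00 over the 5. They were spread, as in Cpa3 at 15.7 ± 10.7 and 3.74 ± 4.59 CPM. Dendritic cell (5 of 6 tested genes rising after injury), T cell (5 of 5) and B cell markers (2 of 2) had smaller sums than the lists above in the injured libraries. Dendritic cell markers summed to 22.5 to 32.0 and 18.9 to 23.5 CPM, T cell markers to 35.0 to 52.5 and 19.7 to 38.9 CPM, and B cell markers to 4.59 to 5.89 and 1.96 to 3.91 CPM in the same order, with 0 genes of these lists passing the edgeR test between the injured groups (0 dendritic, 2 T cell and 1 B cell genes at an unadjusted p under 0.05, and 0, 1 and 1 by DESeq2). No list had a marker at 0 in all libraries, and Ly6g, a neutrophil marker, was at 0 in all 3 Sham libraries. The part of these cells in the levels of the receptors was not tested.

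Set against the summed macrophage markers of the same library, the receptors split. Relative to all 10 markers, 3 members were higher in every injured VEGFR3 fl/fl library than in any Sham library (Lilr4b, Lilra6 and Cd300lf), 4 were lower (Lilra5, Sirpa, Cd300a and Cd300ld) and 3 overlapped. Relative to the 9 markers other than Lyz2, a denominator added after the data were seen, 8 were higher and 2 were lower (Lilra5 and Sirpa). The direction for Cd300a and Cd300ld therefore turned with the presence of Lyz2 in the denominator. Sirpa went from 716 to 725 CPM per 1000 CPM of the 9 markers in Sham to 252 to 327 in injured VEGFR3 fl/fl, and Cd300lf went from 0.604 to 1.43 up to 42.9 to 78.4.
Between the injured groups, no member was lower without overlap on either of these scales. Relative to the 9 markers, Cd300a was at 30.9, 28.9 and 23.8 CPM per 1000 CPM in the libraries labelled VEGFR3 iLECko and overlapped injured VEGFR3 fl/fl, at 40.3, 29.7 and 32.8. Lilrb4a, at 250, 188 and 222 against 252, 308 and 307, was the 1 member that was higher without overlap, 0 were lower and 9 overlapped. Relative to all 10 markers, 4 were higher without overlap (Lilrb4a, Lilr4b, Lilra5 and Cd300lf), 0 were lower and 6 overlapped. These counts also depend on the denominators. In injured VEGFR3 fl/fl and VEGFR3 iLECko, the 10 markers summed to 11311 to 19741 and 7571 to 9375 CPM. The 9 markers summed to 2112 to 2193 and 1417 to 1495 CPM. A gene with equal CPM in every library would therefore be higher in VEGFR3 iLECko without overlap. In injured VEGFR3 fl/fl against Sham it would be lower. The share of all genes in each class on these scales was not tested.

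**Figure D4:**
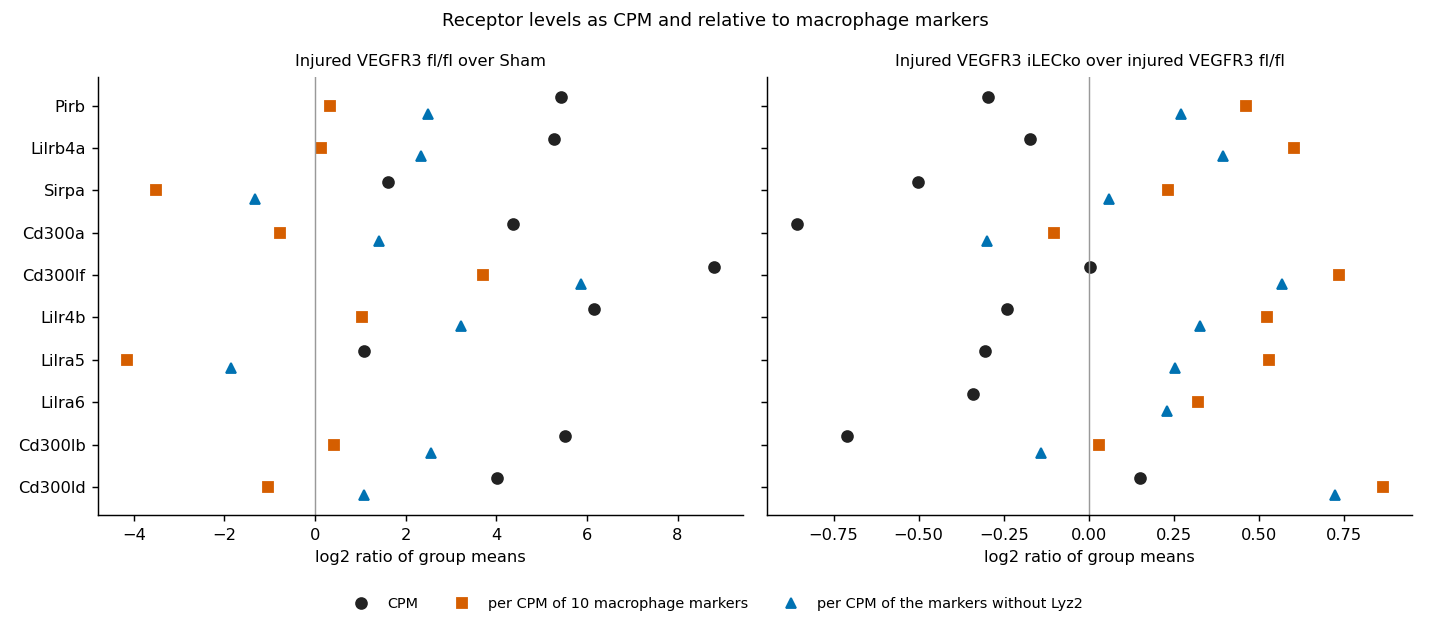
Log2 ratio of group means of each receptor for CPM (circles), for CPM relative to the summed CPM of 10 macrophage and monocyte markers (squares) and relative to the 9 markers without Lyz2 (triangles). Left, injured VEGFR3 fl/fl over Sham, without Lilra6, which had 1 count in Sham. Right, injured VEGFR3 iLECko over injured VEGFR3 fl/fl. In CPM 8 receptors lie left of 0 on the right, and relative to the markers most lie right of it. Relative to the markers, a gene with equal CPM in both groups would also lie right of 0 there.

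The genes that work with these receptors were taken from lists of their adapters, phosphatases, signalling proteins, ligands and other paired receptors, 60 genes named and 48 tested, written by role but with earlier results of these data known. Of the 48, 41 rose after injury, 2 fell and 5 were not DEGs, where 22.1% of all genes tested rose and 17.5% fell. Between the injured groups, 2 fell in the libraries labelled VEGFR3 iLECko (Cd300c2 and Ptpn6) and 0 rose, where 0.466% and 0.573% of all genes did. At an unadjusted p under 0.05 by the edgeR test, 16 were lower and 2 higher. Of all 15010 genes tested, 3674 had such a p in either direction. DESeq2 called 7 lower and 1 higher, beside 283 and 350 of all genes. The 1 higher was Tarm1, named after its values were seen (edgeR log2 fold change 1.47, SE 0.47). Of the fitted changes, 35 were negative and 13 positive, beside 7731 and 7277 over all genes. The p-values that follow are from the edgeR quasi-likelihood test, Benjamini-Hochberg adjusted over all 15010 genes.

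All 3 adapters of activating receptors rose after injury. Tyrobp, which encodes DAP12, went from 11.7 ± 1.05 to 393 ± 94.6 CPM (SD, n = 3 throughout) (log2 fold change 5.07, SE 0.18, adjusted p = 8.6e-08), and Fcer1g, the Fc receptor gamma chain, from 24.9 ± 3.14 to 529.8 ± 113 CPM (4.41, SE 0.18, adjusted p = 1.8e-07). Hcst (DAP10) had 1 count in Sham in all and 188 counts in injured VEGFR3 fl/fl, a ratio of 197 with a 95% counting interval of 35.0 to 7837. In the libraries labelled VEGFR3 iLECko Tyrobp was at 251 ± 11.2 CPM (log2 fold change -0.65, SE 0.15, adjusted p = 0.0621 against injured VEGFR3 fl/fl) and Fcer1g at 327 ± 33.3 CPM (-0.70, SE 0.16, adjusted p = 0.0593). Neither passed the edgeR test, and both were DEGs by DESeq2. For all 3 adapters each library labelled VEGFR3 iLECko lay below each injured VEGFR3 fl/fl library, which held for 14.3% of all genes.
Of the proteins that bind inhibitory tails, Ptpn6, which encodes SHP-1, rose from 16.6 ± 0.208 to 103 ± 18.0 CPM (log2 fold change 2.64, SE 0.12, adjusted p = 2.8e-07) and fell to 67.9 ± 2.83 CPM in the libraries labelled VEGFR3 iLECko (-0.61, SE 0.11, adjusted p = 0.0399). Inpp5d (SHIP-1) rose by 3.48 on the log2 scale after injury (SE 0.10), and Csk, a kinase that holds Src family kinases in check, by 0.63 (SE 0.08). Ptpn11 (SHP-2), which is expressed in most cells, was at 164 ± 6.18 CPM in Sham and 129 ± 13.5 CPM in injured VEGFR3 fl/fl, a change too small for a DEG (-0.35, SE 0.08).
All 8 kinases and signal proteins of the ITAM pathway described here rose after injury, with a median log2 fold change of 4.16, and 0 passed the edgeR test as DEGs between the injured groups (4 at an unadjusted p under 0.05, all lower, and 1 by DESeq2, Card9, named after its values were seen), where all 8 fitted changes were negative with a median of -0.33. Lyn, a Src family kinase that phosphorylates both kinds of tail, rose by 2.73 on the log2 scale (SE 0.09), Syk by 4.49 (SE 0.10) and Plcg2, a phospholipase below Syk, by 1.84 (SE 0.13).
Of the other paired receptors, 18 of 20 tested rose after injury, and Milr1, a mast cell receptor at 21.9 ± 3.61 CPM in Sham, and Cd300lg, an endothelial one, did not pass. Pira2, an activating partner of Pirb, went from 0.355 ± 0.199 to 69.7 ± 16.8 CPM, although 93.0% of its windows occur in other genes. Cd300c2, an activating receptor of the Cd300 family, rose from 2.503 ± 0.170 to 64.0 ± 11.5 CPM (log2 fold change 4.67, SE 0.16, adjusted p = 7.9e-08) and fell to 40.2 ± 4.37 CPM in the libraries labelled VEGFR3 iLECko (-0.67, SE 0.13, adjusted p = 0.0461). The calls of Cd300c2 and Ptpn6 varied with the fit, although their log2 fold changes stayed between -0.78 and -0.52 and between -0.68 and -0.45. The count of 2 became 0 with a replicate block, with library size alone, with the 6 libraries compared fitted alone and without any 1 of the Sham libraries or any 1 of the libraries labelled VEGFR3 iLECko, became 1 without injured VEGFR3 fl/fl replicate 1 and became 3 without injured VEGFR3 fl/fl replicate 2 or replicate 3.
Ligands divided more evenly, with 9 of 13 tested rising after injury and 2 falling. Apoe, a ligand of human LILRB4, rose from 6869 ± 437 to 17282 ± 4179 CPM, and B2m, the MHC class I light chain, from 1075 ± 134 to 2048 ± 388 CPM. Fn1, which encodes fibronectin, rose by 4.98 on the log2 scale (SE 0.28). Cd47, the ligand of Sirpa, named after its values were seen, rose from 50.2 ± 0.361 to 75.7 ± 1.10 CPM (0.59, SE 0.06, adjusted p = 4.0e-05) and was at 78.2 ± 4.77 CPM in the libraries labelled VEGFR3 iLECko. Angptl2, a ligand of Pirb, fell by 0.79 on the log2 scale (SE 0.17), and Omg, a myelin ligand of Pirb, fell by 2.501 (SE 0.48), both also named after their values were seen. Rtn4 and Itgav did not pass the test after injury, and 0 ligands passed it between the injured groups (4 at an unadjusted p under 0.05, all lower, and 1, Apoe, by DESeq2).

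**Figure D5:**
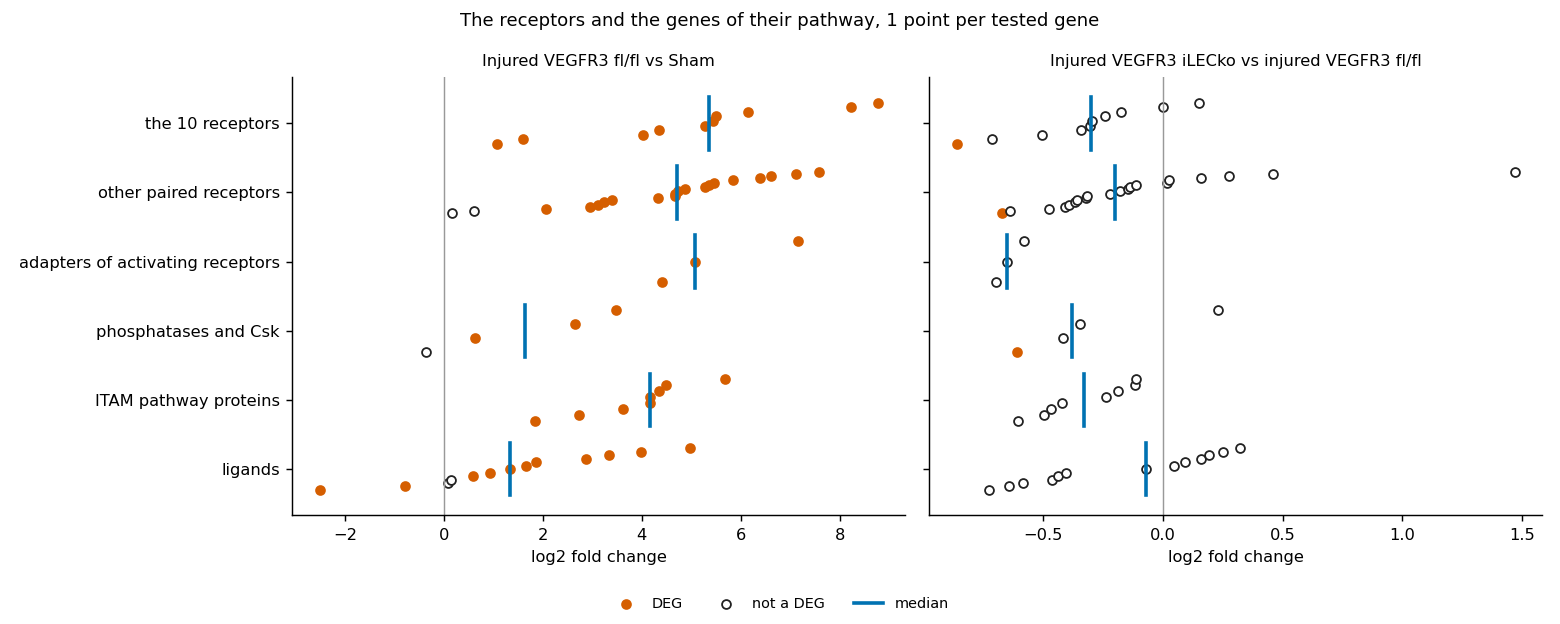
Log2 fold change of the 10 receptors and of the tested genes of each pathway list, 1 point per gene, with the list's median as a vertical line. Left, injured VEGFR3 fl/fl against Sham, and right, injured VEGFR3 iLECko against injured VEGFR3 fl/fl. Filled points are DEGs. After injury all adapters and ITAM pathway proteins are filled, and on the right 3 points are.

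The genes whose profile over the 9 libraries was most like the mean of the members were sought among 14222 genes with a mean of at least 1 CPM, by the root mean square distance between centred log2(CPM + 0.5) values. The 5 nearest were Tlr13, an endosomal receptor for bacterial ribosomal RNA (distance 0.112), Cd84, a SLAM family receptor (0.131), Syk (0.135), the ubiquitin ligase Neurl3 (0.149) and Ncf1, a subunit of the phagocyte NADPH oxidase (0.167). Syk is both one of these and a listed pathway gene. Among the members themselves, Cd300lb lay nearest to their mean profile (0.300), followed by Cd300ld (0.350) and Cd300a (0.351), and Lilra5 farthest (1.62), followed by Cd300lf (1.497) and Sirpa (1.31).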

How the data were processed

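Iris RNA was sequenced as 50-base single-end reads in 9 libraries, 3 in each group, with groups read from the titles, the treatment tags and the description fields. In 2 libraries labelled VEGFR3 iLECko the genotype tag gives a different VEGFR, and the title was used. The submitters' processing notes name HISAT2 2.0.4, Bowtie2 2.2.5, DESeq2 1.4.5 and the mm10 build. The program that estimated counts is not given in the sources used here. The values that the authors deposited are estimated counts for each gene without normalization, of which 9.83% to 10.3% per library had decimals. They were rounded to whole numbers. A combined table of the same values was not used.

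In R 4.3.3, edgeR 4.0.16 kept 15010 of 18349 genes (filterByExpr), normalized by TMM (factors 0.90 to 1.09) and fitted all 9 libraries with group as the only term (quasi-likelihood test, Benjamini-Hochberg adjustment over the whole table). A DEG differed by more than 1.5-fold at an adjusted p under 0.05. CPM are on the TMM scale. Approximate TPM used the longest GENCODE M21 transcript, available for 97.6% of genes. Promoters and positions are RefSeq's for GRCm38.p6, and promoters were aligned in Biopython 1.88. On simulated counts modelled on these libraries, the fit called 164 of 200 genes changed by 3-fold in injured VEGFR3 fl/fl against Sham. Smaller changes and the comparison between the injured groups were not tested in this way.

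The members and all lists were chosen with earlier results of these data known. Named genes were all members, all genes of partner lists of up to 4 genes, the 3 most abundant of longer ones with any called between the injured groups, Flt4, Prox1 and the 5 nearest profiles. Alternatives covered RLE factors, library size alone, no filter, DESeq2 1.42.0, the 6 libraries compared, a replicate block, rounding down, no fold threshold and each library left out. A planned description of the proteins was not made here, and 1 gene of the ITAM pathway list is not reported here.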

Additional observations from a re-analysis of the deposited data

How the results depend on the processing

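The number of members called upregulated after injury stayed at 9 or 10 in all 17 alternatives, the one lost being Lilra5, and the number called upregulated in the libraries labelled VEGFR3 iLECko against Sham at 9 or 10. Against injured VEGFR3 fl/fl, the number of members called downregulated was 1, and it was 0 with a replicate block, 0 with the 6 libraries compared fitted alone, 2 with DESeq2 (Cd300a and Cd300lb) and 0 to 1 with single libraries left out. The number of partner genes called downregulated was 2, and it was 0 with library size alone, 0 with the replicate block, 0 with the 6 libraries alone, 7 with DESeq2 and 0 to 3 with single libraries left out. Beside those 0 members, 2 members, and beside those 0 partner genes 3 (library size alone), 7 (block) and 7 (6 libraries), passed 1.5-fold with p under 0.05 before adjustment. Over all genes this comparison called 86 up and 70 down, and 350 and 283 with DESeq2. It called 11 and 13 with the block, 71 and 41 with library size alone, and 0 to 174 and 0 to 149 with single libraries left out. With the 6 libraries alone it called 0 and 0, where 2805 genes had an unadjusted p under 0.05, beside 3674 in the main fit. Same-numbered libraries correlated from -0.387 to 0.131 in their deviations from the group means. With 3 libraries a group, these correlations cannot tell whether the numbers mark pairs or shared batches. With library size alone the median of all genes after injury was -0.16 on the log2 scale, and 2783 genes were called up and 3523 down in place of 3323 and 2630. No member changed direction with that or any other normalization. The share of the 5 members without inhibitory motifs was 11.7 percentage points higher in injured VEGFR3 fl/fl than in Sham, and the difference was -8.15 over the 9 members other than Sirpa. The cause of the other differences was not tested.

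With 3 libraries a group, replicates differed beyond counting noise, and each library is a pool of 3 irises. Libraries labelled VEGFR3 iLECko rest on their label.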
